A study of Oryctolagus cuniculus with 30 samples.

Results

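Vocal folds that had been injured and then injected with a hydrogel labelled VFLP (man), written here VFLP_man, were set against uninjured folds. The samples were chosen by their titles alone, those naming VFLP (man) on one side and those naming a control without injury on the other. They are 12 of the 30 libraries of the series and 6 of its 15 animals, with 3 animals in each group. Every animal was a New Zealand white rabbit, and no age is listed. The control animals had no injury and no injection, and no collection time is listed for them. The VFLP_man animals had both folds stripped of superficial mucosa, received 20 µL of hydrogel in each fold 7 days later, and gave tissue 28 days after treatment. Injury, healing time and hydrogel therefore change together between the groups and cannot be told apart in this comparison. The series title states that the hydrogels derive from vocal fold lamina propria. What "man" stands for is not given in the sources used here. Both folds of an animal were sequenced separately and are summed here, so that n = 3 animals in each group, and values of animals 1, 2 and 3 are given in that order. Other groups enter only where a result turns on them: animals injured without injection (injury_only), and injured animals injected with type I collagen (Col1) or with the hydrogel labelled VFLP (au) (VFLP_au).

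A vocal fold is a vibrating shelf of tissue with a stratified squamous epithelium on top. Under it lies the lamina propria, a soft connective tissue whose fibroblasts make collagens, elastic fibres, proteoglycans and hyaluronan, and whose depth carries small vessels. Deeper still lies the thyroarytenoid muscle, a fast skeletal muscle, and beside the fold there are mucous glands and ciliated airway epithelium. Stripping of the surface is a standard way to make a scar in this tissue, which is known for changed matrix content and stiffer folds. Markers of the labelled tissue were present in both groups. KRT13, a keratin of non-cornified squamous epithelium, stood at 8604, 4590 and 6857 CPM in control and 14830, 8117 and 9108 CPM in VFLP_man. DCN, the small proteoglycan decorin of fibroblasts, stood at 814, 1669 and 1329 CPM in control and 164, 151 and 153 CPM in VFLP_man. The groups overlapped in KRT13 and did not overlap in DCN.

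Levels are given as CPM, read counts scaled to a common library size with TMM factors, and a fold change comes from edgeR's quasi-likelihood F test with Benjamini-Hochberg adjustment over 17770 genes. Its standard error (SE) is on the log2 scale and approximate. A gene is said to rise or fall only at an adjusted p under 0.05. Libraries held 14.2 M to 27.5 M gene reads (M, mega) in control and 23.7 M to 30.5 M in VFLP_man. Reads that matched no gene feature on the strand counted made up 5.07 to 6.69% in control and 8.03 to 11.9% in VFLP_man. Reads with several map positions made up 14.5 to 34.5% and 11.1 to 14.1%. Unmapped reads made up 3.28 to 4.15% and 3.18 to 4.71%, and reads ambiguous between genes 0.602 to 1.8% and 0.171 to 0.643%. The labels put all 6 control libraries in batch C and all 6 VFLP_man libraries in batch D, so batch and group cannot be told apart, and within either batch there is 1 of these 2 groups only. The left and right folds of an animal correlated at a median r of 0.966 over log2 CPM (6 pairs, across genes), while folds taken from 2 animals of 1 group gave 0.954 and pairs across the groups 0.861. VFLP_man animal 3 stood apart from the other VFLP_man animals in 8 of 13 entries whose identifiers begin KEF51 and carry no symbol in the files. In these 8 all folds of the controls, of VFLP_man animal 3 and of injury_only animal 2 lay above all folds of the other 10 animals. For KEF51_p10 they stood at 4810 to 39700 CPM without TMM scaling against 2.68 to 14.5. What sets these animals apart, the origin of the samples included, was not tested, and VFLP_man animal 3 enters every comparison. In tissue of this kind, fewer cells of a type and less RNA per cell cannot be told apart.

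The comparison asks how injured and injected folds differed from normal folds at collection. In VFLP_man most tested genes of the skeletal muscle, mitochondrial, endothelial, fibroblast and elastic fibre lists fell. In left folds alone 7 of the elastic fibre genes fell. Rises were found in 10 of 17 antigen presentation genes, in 7 of 17 lymphocyte genes and in 8 of 23 epithelial junction genes, and these counts were 2, 3 and 2 in left folds alone. Control animal 2 also moves the last of them. In all, 6623 of 17770 genes passed (37.3%), 2972 of them higher in VFLP_man (16.7%) and 3651 lower (20.5%). These 2 shares are the background against which each list below is read, and a list near them shows nothing particular to it. Every VFLP_man animal lay above every control animal in 4371 genes (24.6%) and below in 4275 (24.1%). The median log2 fold change over all genes tested was 0.13. Decreases were larger than increases: 1445 genes fell and 344 rose by at least 4-fold, and 469 fell and 52 rose by at least 16-fold. Without control animal 2 the number that rose was 1576, against 2972. Without VFLP_man animal 3, 2260 rose and 3160 fell. The fit with batch as a term, which rests on 1 injury_only library, gave 2 genes higher and 27 lower, and 3075 of 17815 at an unadjusted p under 0.05. That library is the right fold of an animal whose left fold entered as a separate sample of the other batch. Side and batch are therefore not separated in this term. Another fit took each animal's muscle level, the mean log2 CPM of its sarcomere list, as covariate. It gave 1 gene each way, and 2219 at an unadjusted p under 0.05. These were MYL4, a myosin light chain, and CEMIP, which degrades hyaluronan, both named after their values were seen. Their log2 fold changes in that fit were 8.58 and -8.66. Without the covariate MYL4 stood at 5.79, 41.7 and 14.8 CPM in control and 2.77, 40 and 17.4 CPM in VFLP_man. CEMIP stood at 11.6, 2.74 and 10.6 CPM in control and 3.22, 0.903 and 1.69 CPM in VFLP_man. The groups overlapped in both genes, and the CPM of MYL4 show no rise. Muscle level does not overlap between the groups, and its part in the other differences cannot be told apart.

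**Figure D1:**
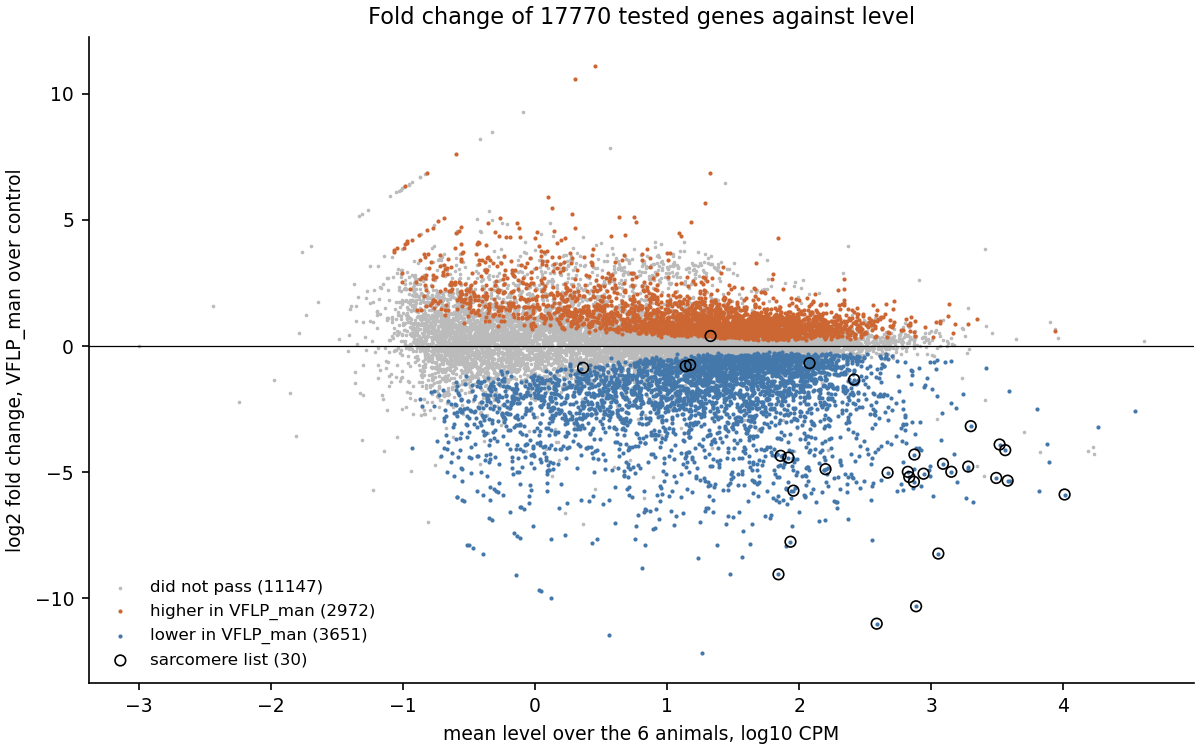
Each point is 1 of 17770 tested genes, with the log10 of its mean CPM over the 6 animals on the x axis and its log2 fold change (VFLP_man over control) on the y axis. Orange points are the 2972 genes that rose, blue points the 3651 that fell, and rings the 30 tested genes of the sarcomere list, of which 25 fell.

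Skeletal muscle genes fell. Of the sarcomere list, which holds the proteins of the contractile lattice (36 listed), 25 of 30 tested members fell and 0 rose, with a median log2 fold change of -4.93. The list took 4.38, 6.95 and 5.03% of gene reads in the control animals and 0.119, 0.551 and 0.296% in the VFLP_man animals, so the groups did not overlap (exact permutation test, two-sided p = 0.1, the smallest that 3 against 3 allow). MYH1, a fast myosin heavy chain, was the most abundant muscle gene in control. It stood at 14610, 29840 and 16040 CPM in control and 108, 638 and 279 CPM in VFLP_man, 58.96-fold lower (log2 fold change -5.88, SE 0.77, adjusted p = 0.000161). MYH13, the myosin of very fast extraocular and laryngeal fibres, stood at 1469, 2044 and 1099 CPM in control and 0.484, 1.73 and 1.404 CPM in VFLP_man. Each VFLP_man animal was under 2 CPM and the difference was 1267-fold (log2 fold change -10.31, SE 1.42, adjusted p = 0.000209). MYH4, another fast myosin, stood at 861, 3769 and 2151 CPM in control and 1.902, 16.8 and 3.94 CPM in VFLP_man, and MYH7, the slow myosin, at 37.02, 209.5 and 267 CPM in control and 0.536, 0.828 and 1.005 CPM in VFLP_man. Both were lower in each VFLP_man animal than in any control, 298-fold and 216-fold. Of the tropomyosins, TPM2, beta-tropomyosin, stood at 3834, 9296 and 5060 CPM in control and 57.3, 275 and 154 CPM in VFLP_man, and TPM1, which is also made outside skeletal muscle, at 2425, 5271 and 3084 CPM in control and 324, 496 and 374 CPM in VFLP_man. Their log2 fold changes were -5.23 (adjusted p = 0.00015) and -3.17 (adjusted p = 0.000106). TTN, the giant spring protein titin, stood at 4181, 10950 and 7093 CPM in control and 44.9, 369.9 and 136 CPM in VFLP_man, 40.4-fold lower. The 5 tested members that did not pass were MYBPC2, MYOZ2, MYBPH, MYH8 and the embryonic myosin MYH3. Of these, MYH8 and MYH3 are myosins of developing fibres, and MYH3 had a log2 fold change of 0.40 (adjusted p = 0.72).

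The machinery that turns a nerve signal into calcium release was lower as well. In the excitation-contraction coupling list 23 of 26 tested members fell and 0 rose (27 listed), with a median log2 fold change of -4.47. PVALB, a calcium buffer of fast fibres, stood at 41.5, 23.7 and 37.8 CPM in control and 0.0173, 0.241 and 0.0319 CPM in VFLP_man, and SLN, which regulates the calcium pump, at 1323, 2781 and 1957 CPM in control and 17.01, 56.8 and 23.7 CPM in VFLP_man. Every VFLP_man animal was far below every control, 338-fold and 62.1-fold. ATP2A1, the fast-fibre calcium pump, stood at 5049, 11330 and 6946 CPM in control and 55.2, 355 and 164 CPM in VFLP_man, whereas ATP2A2, its form in slow fibres and in other cells, stood at 1708, 1901 and 1678 CPM in control and 431, 474 and 453 CPM in VFLP_man. The falls were 40.6-fold for ATP2A1 and 3.89-fold for ATP2A2, the latter with little spread among animals (SE 0.13). It was also 1 of the 29 genes that passed with batch as a term (log2 fold change -1.50). The acetylcholine receptor subunits CHRNA1 and CHRND and the synapse kinase MUSK did not pass, with log2 fold changes of -1.31, 0.21 and 0.35. Of the genes for muscle fuel and creatine, 18 of 19 tested members fell and 0 rose. PHKA1, a subunit of phosphorylase kinase, stood at 334, 741 and 455 CPM in control and 15.1, 29.8 and 19.8 CPM in VFLP_man. ALDOA, the muscle aldolase, stood at 6985, 24490 and 13270 CPM in control and 559.9, 735 and 570.4 CPM in VFLP_man, and GOT1, an aminotransferase of the malate shuttle, at 652, 1678 and 1009 CPM in control and 77.5, 83.5 and 87.4 CPM in VFLP_man. The groups were apart in each, and the falls were 23.6-fold, 23.99-fold and 13.4-fold. The only member of this list that did not pass was LDHA, listed at 1.48 ± 0.87 CPM in control and 25.5 ± 43.7 CPM in VFLP_man (SD, adjusted p = 0.17), with a single high animal in VFLP_man.

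In the list of myogenic regulators 13 of 17 tested members fell and 2 rose, with a median log2 fold change of -2.69. MSTN, myostatin, which limits muscle growth, stood at 58.3, 108 and 95.2 CPM in control and 0.259, 1.45 and 0.255 CPM in VFLP_man. MYF6, a transcription factor of mature fibres, stood at 136, 306 and 237 CPM in control and 2.01, 14.2 and 8.49 CPM in VFLP_man. The groups did not overlap in either, with falls of 132-fold and 27.4-fold. PAX7, the factor of satellite cells, stood at 5.19 ± 1.62 CPM in control and 0.398 ± 0.191 CPM in VFLP_man (SD, n = 3 each) and fell 12.9-fold (adjusted p = 0.00032). The 2 members that rose are genes of forming or denervated fibres. CHRNG, the fetal receptor subunit, stood at 0.417 ± 0.183 CPM in control and 5.01 ± 4.05 CPM in VFLP_man, and MYMX, a fusion peptide of myoblasts, at 0.0152 ± 0.0264 CPM in control and 0.323 ± 0.372 CPM in VFLP_man. Their adjusted p were 0.026 and 0.031. Their share, 2 of 17, is below the 16.7% of all genes that rose. The count of 2 became 1 without VFLP_man animal 3 or control animal 2 and 0 without VFLP_man animal 2 or control animal 1 or 3, and 0 with limma. It was also 0 in left folds alone, in right folds alone and with only the 2 groups in the fit. Here and below, genes given as mean ± SD outside the rule for named genes were picked after their values were seen.

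The muscle share also differed between folds and between injured groups. In control the left folds of animals 1, 2 and 3 gave 1.48, 5.91 and 3.58% sarcomere reads and the right folds 6.96, 8.46 and 6.59%. In VFLP_man they gave 0.101, 0.0749 and 0.0491% on the left and 0.141, 0.952 and 0.557% on the right. The right fold held more in all 6 animals, and the lowest control fold stayed above the highest VFLP_man fold. Animals injured without injection gave 0.982, 1.75 and 2.12%. The difference of the group means was -3.58 percentage points in left folds alone and -6.79 in right folds alone.

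**Figure D2:**
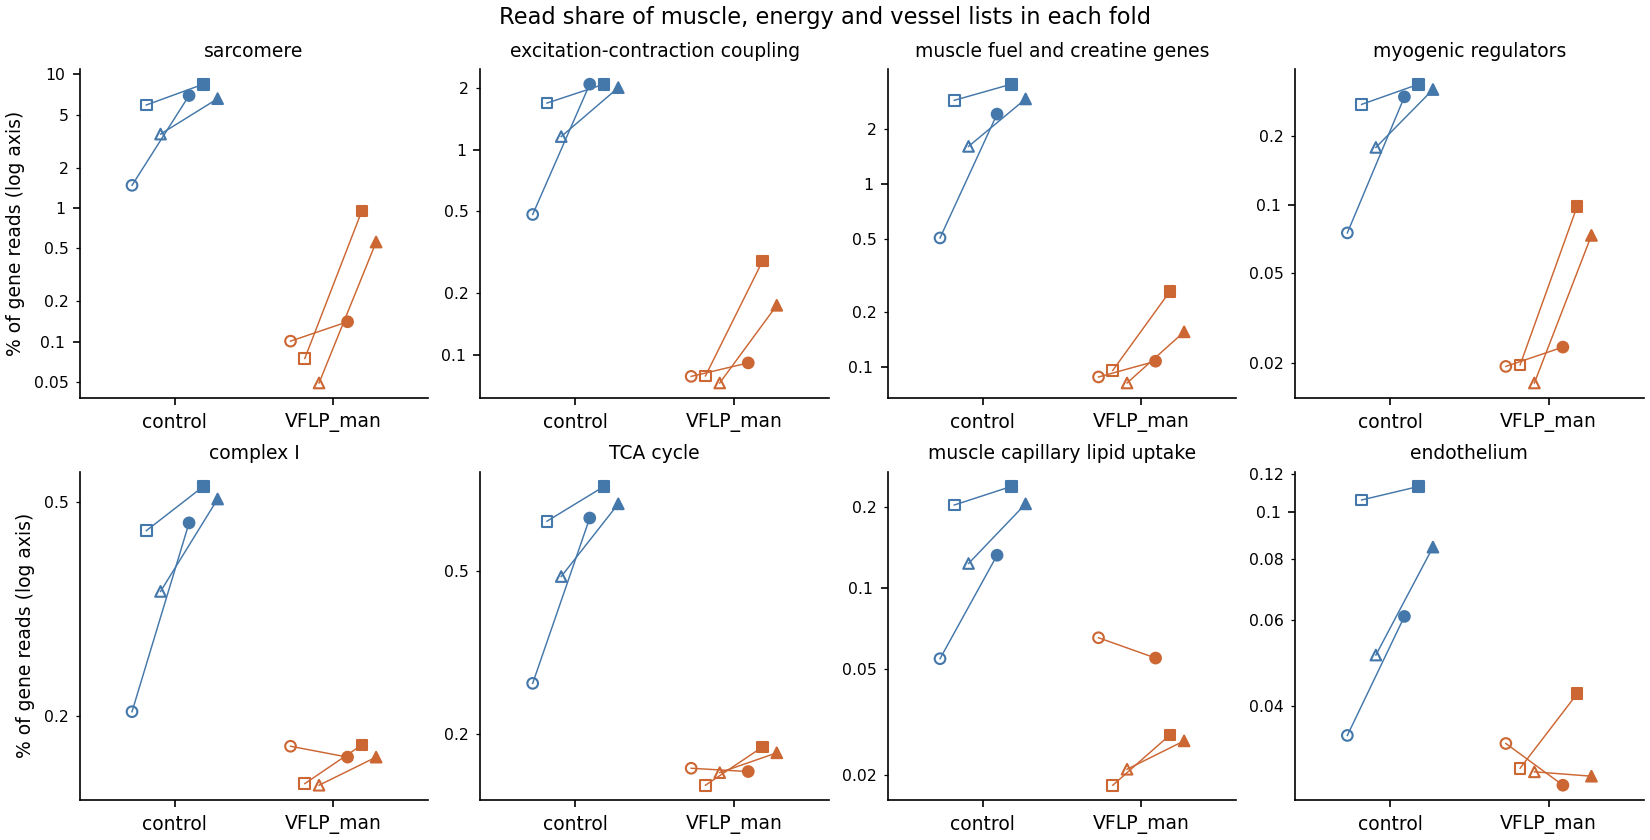
Percent of gene reads (log axis) on the genes of 8 muscle, energy and vessel lists, for each fold of the 3 control (blue) and 3 VFLP_man animals (orange). Circles, squares and triangles are animals 1, 2 and 3, open markers left folds and filled markers right folds, joined within an animal. Sarcomere reads range from 1.48 to 8.46% in control folds and from 0.0491 to 0.952% in VFLP_man folds.

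Nuclear genes of mitochondrial energy supply fell almost throughout the lists, and here the VFLP_man animals were close to each other. Of complex I, the entry point of the respiratory chain, 30 of 32 tested members fell and 0 rose (median log2 fold change -1.91), and of complexes II to V 18 of 19 tested members fell and 1 rose (-1.94). Of the TCA cycle and pyruvate entry genes, 20 of 20 tested members fell and 0 rose (-2.15). NDUFS7, a core subunit of complex I, stood at 53.9, 112 and 79.4 CPM in control and 13.3, 11.9 and 11.8 CPM in VFLP_man. ATP5MC1, which encodes the c-ring of ATP synthase, stood at 257, 560.3 and 411 CPM in control and 63.5, 47.4 and 62.6 CPM in VFLP_man. IDH2, a mitochondrial isocitrate dehydrogenase, stood at 763, 2127 and 1270 CPM in control and 116, 129.7 and 124 CPM in VFLP_man. These differences were 6.59-fold (log2 fold change -2.72, SE 0.24, adjusted p = 4.5e-05), 7.08-fold (log2 fold change -2.82, SE 0.24, adjusted p = 4.5e-05) and 11.3-fold (log2 fold change -3.49, SE 0.31, adjusted p = 4.5e-05). IDH3A, a subunit of the NAD-dependent isocitrate dehydrogenase, stood at 191, 371 and 271 CPM in control and 47.4, 48.5 and 55.4 CPM in VFLP_man, and both IDH3A and ATP5MC1 passed with batch as a term (log2 fold changes -1.94 and -2.19). The member that rose in these lists was COX6A1, the non-muscle form of a complex IV subunit, at 83.1 ± 15.5 CPM in control and 127 ± 8.36 CPM in VFLP_man (SD, adjusted p = 0.014), a count of 1 that became 0 without control animal 2. Of the fatty acid oxidation genes, 17 of 20 tested members fell and 0 rose (-1.32). In left folds alone 11 fell. CPT1B, the muscle form of the enzyme that admits fatty acids into mitochondria, stood at 95.7, 206 and 174 CPM in control and 4.48, 11.8 and 11.3 CPM in VFLP_man. It fell 17.2-fold, while its liver form CPT1A had a log2 fold change of -0.18 (adjusted p = 0.82). ACADM, the medium-chain dehydrogenase, stood at 129.5, 299 and 202 CPM in control and 33.6, 37.1 and 30.8 CPM in VFLP_man, and ACADVL, the very-long-chain one, at 123, 197 and 147 CPM in control and 43.05, 41.6 and 46.02 CPM in VFLP_man, falls of 6.22-fold and 3.58-fold. The medians of complex I and of the TCA cycle were -1.48 and -1.51 with batch as a term and -0.39 and -0.40 against injury_only.

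Genes that carry lipid from capillaries into muscle fell, some of which muscle fibres also make. In that list 12 of 15 tested members fell and 0 rose, with a median log2 fold change of -4.09. CA4, a carbonic anhydrase of capillary endothelium, stood at 2.67, 12.7 and 6.37 CPM in control and was at 0 reads in every VFLP_man animal, at least 373-fold lower against a floor of 3 counts over the group. LPL, lipoprotein lipase, stood at 229.5, 1275 and 640.1 CPM in control and 3.303, 6.397 and 0.846 CPM in VFLP_man. CD36, the fatty acid transporter, stood at 64.95, 239 and 175 CPM in control and 1.38, 1.94 and 2.94 CPM in VFLP_man. VLDLR, a receptor for lipoproteins, stood at 246, 596 and 451 CPM in control and 13.8, 16.6 and 7.75 CPM in VFLP_man. The groups did not overlap in any of these, and the falls were 203-fold, 76.3-fold and 33.9-fold (log2 fold change -5.08, SE 0.64, adjusted p = 0.000133). FABP4, a lipid chaperone of capillaries and fat cells, stood at 16.6, 114 and 34.7 CPM in control and 0.38, 0.677 and 0.16 CPM in VFLP_man. Among the adipocyte genes 6 of 15 tested members fell and 1 rose, with LPL, CD36 and FABP4 counted again. LPIN1, a phosphatidate phosphatase, stood at 7.73, 9.27 and 7.68 CPM in control and 1.26, 0.858 and 0.973 CPM in VFLP_man, a fall of 7.96-fold. The gene that rose was the adiponectin receptor ADIPOR2, at 202 ± 8.5 CPM in control and 297 ± 79.8 CPM in VFLP_man, a count of 1 that became 0 without VFLP_man animal 1 or control animal 1, 2 or 3.

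General markers of endothelium fell as well. There 21 of 29 tested members fell and 0 rose, with a median log2 fold change of -1.88. FLT1, a VEGF receptor, stood at 36.6, 125 and 66.4 CPM in control and 7.33, 8.97 and 8.78 CPM in VFLP_man. CDH5, the cadherin of endothelial junctions, stood at 34.5, 137 and 65.4 CPM in control and 10.4, 11.1 and 8.55 CPM in VFLP_man, and TEK, the angiopoietin receptor, at 32.7, 126 and 57.5 CPM in control and 8.63, 10.5 and 9.32 CPM in VFLP_man. Control animal 2 was the highest and control animal 1 the lowest in each, and every VFLP_man animal was lower still, by 9.09-fold, 7.87-fold and 7.58-fold (adjusted p = 0.000191, 0.000539 and 0.000589). The lymphatic genes PROX1, FLT4 and LYVE1 did not pass, with log2 fold changes of -0.17, -0.37 and -0.82, and the adhesion gene ICAM1 had 0.70 (adjusted p = 0.092). In the erythroid list 3 of 8 tested members fell and 0 rose, of 18 listed. The falls numbered 0 in left folds alone and 2 in right folds alone. The read share of the list overlapped between the groups. It was 0.002, 0.00324 and 0.00343% in control and 0.00577, 0.000832 and 0.000593% in VFLP_man. ALAS2, the first enzyme of heme synthesis in red cells, stood at 4.32, 10.6 and 10.5 CPM in control and 0.692, 1.19 and 1.15 CPM in VFLP_man, 8.34-fold lower (log2 fold change -3.06, SE 0.75, adjusted p = 0.00726).

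Many matrix genes fell, but not uniformly, and read shares of whole lists went both ways. Mean shares in control and VFLP_man were 0.0795 and 0.0466% for fibrillar collagens and 0.141 and 0.117% for elastic fibre genes. For proteoglycans they were 0.278 and 0.216%, and for matricellular genes 0.217 and 0.142%. They were 0.117 and 0.17% for other collagens and 0.0547 and 0.0628% for collagen processing. For hyaluronan genes they were 0.0767 and 0.0905%, and for proteases 0.0676 and 0.0725%. Of the 10 genes followed as a preset group, 7 fell, 1 rose and 2 did not pass. COL1A1, a chain of type I collagen, stood at 178, 179 and 122 CPM in control and 120.5, 40.3 and 39.2 CPM in VFLP_man. VFLP_man animal 1 was just below the lowest control and the other two were well below. The groups did not overlap, and the difference did not pass (log2 fold change -1.26, SE 0.51, adjusted p = 0.0692). COL3A1, the type III collagen chain, stood at 649.6, 399.5 and 312 CPM in control and 273, 145 and 156 CPM in VFLP_man, 2.37-fold lower (log2 fold change -1.25, SE 0.43, adjusted p = 0.0378). FN1, fibronectin, stood at 551, 400.2 and 404 CPM in control and 154, 96.5 and 58 CPM in VFLP_man, and all 3 VFLP_man animals were below every control, 4.398-fold (log2 fold change -2.14, SE 0.36, adjusted p = 0.000741). ELN, elastin, stood at 105, 89.6 and 112 CPM in control and 50.4, 60.8 and 34.8 CPM in VFLP_man, 2.1-fold lower (log2 fold change -1.07, SE 0.37, adjusted p = 0.0396). POSTN, the matricellular protein periostin, stood at 168, 134 and 116 CPM in control and 102, 80.6 and 58.2 CPM in VFLP_man, and LOX, which cross-links collagen and elastin, at 19.02, 12.7 and 11.3 CPM in control and 5.88, 6.02 and 5.22 CPM in VFLP_man. They fell 1.73-fold (adjusted p = 0.0424) and 2.51-fold (adjusted p = 0.0193). HAS2, a hyaluronan synthase, stood at 2.77, 5.43 and 3.48 CPM in control and 1.04, 1.59 and 0.495 CPM in VFLP_man and fell 3.72-fold (adjusted p = 0.00981). ACTA2, the actin of smooth muscle and myofibroblasts, stood at 53, 77.1 and 63.8 CPM in control and 10.9, 14.5 and 37.9 CPM in VFLP_man, and VFLP_man animal 3 was the highest of its group. It fell 3.06-fold (adjusted p = 0.0439). MMP1, an interstitial collagenase, stood at 1.96, 0.0457 and 0.428 CPM in control and 6.12, 4.94 and 7.85 CPM in VFLP_man, with every VFLP_man animal above every control, 7.502-fold higher (log2 fold change 2.91, SE 0.93, adjusted p = 0.0272). TGFB1, the growth factor central to scar formation, stood at 9.61, 9.96 and 13.8 CPM in control and 8.73, 8.88 and 8.94 CPM in VFLP_man. It did not overlap between the groups and did not pass (log2 fold change -0.33, SE 0.28, adjusted p = 0.378).

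**Figure D3:**
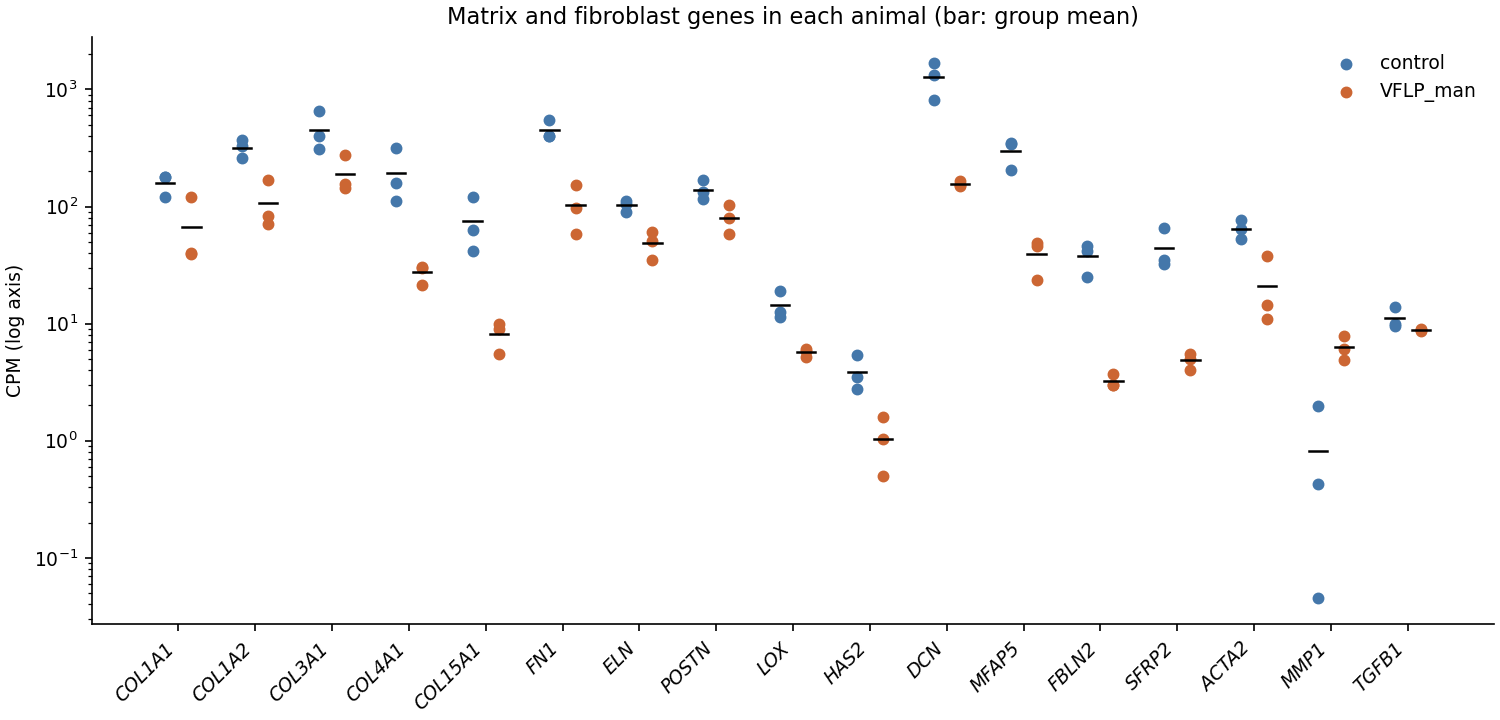
CPM (log axis) of 17 matrix and fibroblast genes in each control (blue) and VFLP_man animal (orange), 3 points a group, with a bar at the group mean. DCN separates the groups widely, 814 to 1669 CPM against 151 to 164 CPM, while TGFB1 lies between 8.73 and 13.8 CPM in all 6 animals and MMP1 is higher in every VFLP_man animal.

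Collagens were then taken by class. Of fibrillar collagens 4 of 9 tested members fell and 0 rose, COL11A2, COL2A1, COL1A2 and COL3A1, a count that was 2 without control animal 2 and 1 without VFLP_man animal 3. Of the other collagens 12 of 27 tested members fell and 3 rose. The rises were COL8A1, COL21A1 and COL10A1, and the count was 5 without control animal 1 and 0 in left folds alone. COL4A1, a chain of the basement membrane network, stood at 112, 314 and 158 CPM in control and 30.03, 30.7 and 21.4 CPM in VFLP_man, and its partner COL4A2 at 52.8, 124 and 65.4 CPM in control and 12.4, 12.1 and 11.3 CPM in VFLP_man. COL15A1, a collagen beneath capillaries and muscle fibres, stood at 42.1, 119.9 and 63.6 CPM in control and 10.01, 9.03 and 5.47 CPM in VFLP_man. Each VFLP_man animal was below each control, with falls of 7.101-fold, 6.79-fold and 9.19-fold, and COL4A2 also passed with batch as a term (log2 fold change -2.67). Of the enzymes that fold and trim collagen 10 of 19 tested members fell and 0 rose. In left folds alone 6 fell. P4HA2, a proline hydroxylase, stood at 29.3, 32.8 and 31.4 CPM in control and 13.6, 15.98 and 15.6 CPM in VFLP_man, and PCOLCE2, an enhancer of procollagen cleavage, at 113, 72.9 and 41.5 CPM in control and 11.5, 7.74 and 9.53 CPM in VFLP_man, falls of 2.07-fold and 7.92-fold.

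Elastic fibre genes fell for the most part. There 13 of 17 tested members fell and 0 rose, with a median log2 fold change of -1.44. FBLN2, a fibulin, stood at 24.9, 41.8 and 45.8 CPM in control and 2.99, 3.75 and 3 CPM in VFLP_man. MFAP5, a microfibril protein, stood at 207, 352 and 343 CPM in control and 45.8, 49.3 and 23.6 CPM in VFLP_man. The groups were apart, 11.5-fold (log2 fold change -3.53, SE 0.36, adjusted p = 5.98e-05) and 7.61-fold (log2 fold change -2.93, SE 0.39, adjusted p = 0.000176). FBN1, the main fibrillin, was an exception at 256 ± 81.6 CPM in control and 263 ± 184 CPM in VFLP_man (SD, adjusted p = 0.95). Among proteoglycans 13 of 21 tested members fell and 1 rose (median -1.57). In left folds alone 8 fell and 0 rose. DCN fell 8.15-fold (log2 fold change -3.03, SE 0.37, adjusted p = 0.000112). HSPG2, the basement membrane proteoglycan perlecan, stood at 130, 161 and 103 CPM in control and 24.4, 36.9 and 40.9 CPM in VFLP_man, and PRELP, a leucine-rich proteoglycan, at 61.95, 84.2 and 58.02 CPM in control and 10.4, 12.4 and 9.32 CPM in VFLP_man. Their falls were 3.85-fold and 6.36-fold. The member that rose was AGRN, agrin, at 83.2 ± 33.4 CPM in control and 139 ± 19.2 CPM in VFLP_man, and its count of 1 became 0 without VFLP_man animal 2 or 3 or control animal 2 or 3. Of hyaluronan genes 4 of 14 tested members fell and 2 rose, beside 20.5% and 16.7% of all genes. Beside HAS2, TNFAIP6, which links hyaluronan to inter-alpha-inhibitor, stood at 4.42, 10.8 and 7.14 CPM in control and 1.38, 1.48 and 0.431 CPM in VFLP_man and HAPLN1, a link protein, at 13.6, 24.5 and 11.1 CPM in control and 5.21, 4.12 and 2.47 CPM in VFLP_man. The rises were the hyaluronidases HYAL1 and HYAL2, at 25.9 ± 5.02 CPM in control and 41 ± 11.3 CPM in VFLP_man and 35.4 ± 5.69 CPM in control and 52.7 ± 8.8 CPM in VFLP_man, a count that was 1 without VFLP_man animal 1 or 2 and 0 without VFLP_man animal 3 or control animal 2 or 3. These rises numbered 0 in left folds alone.

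In the protease list 8 of 26 tested members fell and 4 rose, beside 20.5% and 16.7% of all genes. The median log2 fold change was 0.13. MMP2, a gelatinase of fibroblasts, stood at 126, 144 and 105 CPM in control and 39.6, 28.2 and 25.3 CPM in VFLP_man and ADAMTS1 at 26.1, 64.8 and 47.9 CPM in control and 7.07, 9.78 and 6.67 CPM in VFLP_man, with both lower in every VFLP_man animal, 4.03-fold and 5.89-fold. The 4 that rose were MMP1, MMP13, MMP15 and CTSS, and the count was 2 without VFLP_man animal 3 or control animal 3. It was 0 in left folds alone and 8 in right folds alone. MMP13, a second collagenase, stood at 0.157 ± 0.224 CPM in control and 2.06 ± 0.575 CPM in VFLP_man (SD, adjusted p = 0.0098). Of fibronectin and the matricellular genes 6 of 20 tested members fell and 2 rose. SPARCL1, a matricellular protein of vessels and muscle, stood at 381, 1031 and 826 CPM in control and 41.1, 58.2 and 32.1 CPM in VFLP_man, a fall of 17.02-fold. The 2 that rose were TNN and SMOC2 (1 without VFLP_man animal 1). In the TGF-beta pathway 9 of 26 tested members fell and 5 rose, beside 20.5% and 16.7% of all genes. In left folds alone 5 fell and 0 rose. TGFB3 stood at 18.2, 36.1 and 31.3 CPM in control and 7.16, 9.18 and 8.17 CPM in VFLP_man and the co-receptor TGFBR3 at 132, 134 and 124 CPM in control and 50.6, 57.6 and 65.8 CPM in VFLP_man, falls of 3.49-fold and 2.24-fold. ENG, the endothelial co-receptor, stood at 38.5, 154 and 82.7 CPM in control and 13.04, 16.4 and 13.2 CPM in VFLP_man. The 5 rises (SMAD2, SMAD3, SMURF1, SMURF2 and TGIF1) numbered 3 without VFLP_man animal 1 or 2, 2 without VFLP_man animal 3 or control animal 3 and 1 without control animal 2.

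Fibroblast identity genes fell nearly throughout. There 22 of 24 tested members fell and 1 rose, with a median log2 fold change of -1.91, and -1.40 with batch as a term. SFRP2, a secreted Wnt modulator, stood at 32.2, 34.9 and 66.1 CPM in control and 4.05, 4.97 and 5.55 CPM in VFLP_man. PDGFRB, a receptor of fibroblasts and pericytes, stood at 49.5, 73.3 and 59.6 CPM in control and 12.6, 11.4 and 6.57 CPM in VFLP_man. CLEC3B, tetranectin, stood at 10.03, 20.97 and 11.3 CPM in control and 1.85, 3.25 and 1.64 CPM in VFLP_man. No VFLP_man animal reached a control in these, and the falls were 9.14-fold, 5.96-fold and 6.26-fold. PI16, a marker of adventitial fibroblasts, stood at 169 ± 71.4 CPM in control and 9.45 ± 5.69 CPM in VFLP_man and VIM, vimentin, at 693 ± 200 CPM in control and 185 ± 34.1 CPM in VFLP_man (SD, n = 3 each), falls of 17.9-fold and 3.75-fold. The member that rose was C3, complement component 3, at 88.6 ± 30.1 CPM in control and 194 ± 84.6 CPM in VFLP_man (adjusted p = 0.023), a count of 1 that became 0 without VFLP_man animal 3 or control animal 2 or 3. Smooth muscle and myofibroblast genes gave 16 falls and 1 rise among 23 (median -1.81), and DES and CASQ2 among them are also skeletal muscle genes. LMOD1, a smooth muscle leiomodin, stood at 38.5, 82.8 and 61.6 CPM in control and 0.778, 1.97 and 2.22 CPM in VFLP_man, and RGS5, a pericyte gene, at 70.7, 244 and 112 CPM in control and 14.2, 13.5 and 9.398 CPM in VFLP_man. They fell 36.7-fold and 11.5-fold. NOTCH3, a receptor of mural cells, rose (log2 fold change 0.52), a count of 1 that became 0 without control animal 2.

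Cartilage and nerve genes fell in part. In the cartilage list 8 of 14 tested members fell and 0 rose. The falls were 5 without VFLP_man animal 1 or 3 or control animal 2, and 3 in left folds alone. CLEC3A, a cartilage lectin, stood at 22.7, 68.3 and 51.7 CPM in control and 0.121, 0.286 and 0.192 CPM in VFLP_man. It fell 234-fold (log2 fold change -7.87, SE 0.80, adjusted p = 5.98e-05) and passed with batch as a term (log2 fold change -6.51). SOX9 and COL9A1 were on the other side of 0 without passing, with log2 fold changes of 0.67 and 1.59. Of the Schwann cell and nerve genes 6 of 17 tested members fell and 0 rose. CDH19, a cadherin of Schwann cells, stood at 7.77, 19.5 and 13.4 CPM in control and 0.121, 0.241 and 0.0957 CPM in VFLP_man, and PMP22, a myelin gene also made by fibroblasts, at 35.3, 54.1 and 64.1 CPM in control and 5.81, 9.72 and 6.62 CPM in VFLP_man. Both were lower in every VFLP_man animal, 86.8-fold and 6.92-fold. The Schwann cell genes SOX10 and MBP did not pass.

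Of the keratins 4 of 17 tested members rose and 0 fell, beside 16.7% and 20.5% of all genes, with a median log2 fold change of 0.44. KRT8, a simple epithelium keratin, stood at 215, 231 and 312 CPM in control and 448, 436 and 450.3 CPM in VFLP_man, and KRT19 at 312, 208 and 255 CPM in control and 578, 431 and 548 CPM in VFLP_man. Both were higher in every VFLP_man animal, 1.76-fold (adjusted p = 0.00477) and 2.01-fold (adjusted p = 0.00738). KRT15, of basal cells, stood at 867, 472 and 637 CPM in control and 851, 1167 and 1349 CPM in VFLP_man, and KRT78, of differentiated layers, at 385, 209.5 and 194 CPM in control and 1079, 435 and 399 CPM in VFLP_man, with KRT15 overlapping between groups. The count of 4 was 2 without control animal 2 or 3, and 0 in left folds alone. KRT13, with levels given above, was 1.599-fold higher without passing (adjusted p = 0.118). KRT4, its partner in non-cornified epithelium, stood at 9683, 5359 and 9635 CPM in control and 14840, 7547 and 8215 CPM in VFLP_man and did not pass either (adjusted p = 0.498). Among squamous differentiation genes 2 of 23 tested members rose and 0 fell (median 0.54), a share of rises below that of all genes. They were SCEL, sciellin, at 1073, 590.4 and 805 CPM in control and 2327, 1652 and 1666 CPM in VFLP_man, and ZNF750, a differentiation factor, at 148, 67.1 and 144 CPM in control and 241, 157 and 211 CPM in VFLP_man. The count of 2 was 1 without VFLP_man animal 1 or 3 or control animal 2, and 0 in left folds alone.

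Of the genes of epithelial cell junctions 8 of 23 tested members rose and 0 fell, with a median log2 fold change of 0.65. MARVELD3, of tight junctions, stood at 15.2, 6.76 and 12.8 CPM in control and 28.8, 27.5 and 35.7 CPM in VFLP_man. CGN, cingulin, stood at 93.3, 46.5 and 77.4 CPM in control and 155, 151 and 201 CPM in VFLP_man. Both were higher in each VFLP_man animal than in any control, 2.65-fold (log2 fold change 1.41, SE 0.23, adjusted p = 0.000719) and 2.33-fold (log2 fold change 1.22, SE 0.22, adjusted p = 0.00102). GJB6, a connexin of squamous epithelium, stood at 26.3, 16.8 and 17.2 CPM in control and 191, 37.8 and 34.8 CPM in VFLP_man, and VFLP_man animal 1 was far above the other two. The count of 8 was 5 without control animal 3, 4 without VFLP_man animal 2, 3 without VFLP_man animal 3 and 2 without control animal 2, and 2 in left folds alone. Within the control group the right folds held fewer reads of these genes: 0.746, 0.226 and 0.628% on the left against 0.316, 0.0347 and 0.163% on the right. The VFLP_man folds lay between 0.639 and 0.735%, inside the range of the left control folds and above the right ones. The median log2 fold change of the junction list was 0.24 in left folds alone and 1.58 in right folds alone. For keratins it was 0.19 and 1.35. In the hemidesmosome and basement membrane list 7 of 20 tested members fell and 1 rose. LAMA2 and LAMA4, laminins of muscle and vessels, stood at 29.6, 45.1 and 35.97 CPM in control and 2.14, 4.53 and 2.697 CPM in VFLP_man and at 55.4, 166 and 85.7 CPM in control and 10.9, 15.1 and 10.2 CPM in VFLP_man. LAMA5, a laminin of epithelia, stood at 27.1, 25.8 and 24.01 CPM in control and 34.7, 46.2 and 45.97 CPM in VFLP_man and was the single rise (4 without control animal 1).

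Of ion and water transport genes 6 of 20 tested members rose and 2 fell. SCNN1A, a subunit of the epithelial sodium channel, stood at 106, 51.4 and 104 CPM in control and 229, 161 and 176 CPM in VFLP_man, and KCNE3, a potassium channel subunit, at 8.31, 3.02 and 9.77 CPM in control and 46.98, 34.96 and 13.8 CPM in VFLP_man. They rose 2.16-fold and 4.52-fold. AQP1, the water channel of endothelium, stood at 317, 997 and 462 CPM in control and 109, 90.1 and 74.7 CPM in VFLP_man, a fall of 6.49-fold. The 6 rises were 1 without control animal 2, and 0 in left folds alone, and the 2 falls 1 without VFLP_man animal 1 or 2 or control animal 2. Of gland genes 5 of 21 tested members rose and 1 fell. FOXA1, an epithelial transcription factor, stood at 27.8, 14.5 and 24.4 CPM in control and 63.7, 74.5 and 70.8 CPM in VFLP_man, 3.12-fold higher (log2 fold change 1.64, SE 0.24, adjusted p = 0.000347). WFDC2, a secreted antiprotease, stood at 157, 52.1 and 109 CPM in control and 192, 456 and 346 CPM in VFLP_man, and MUC20, a membrane mucin, at 64.6, 73.2 and 71.8 CPM in control and 213, 115 and 105 CPM in VFLP_man, rises of 3.12-fold and 2.06-fold. The 5 rises were 3 without VFLP_man animal 1 or 3 or control animal 1, 2 without control animal 3 and 1 without control animal 2, and 1 in left folds alone. KLK1, tissue kallikrein, went the other way with 129 reads in control and 3 in VFLP_man, a ratio of 76.3 (95% counting interval 25.6 to 375). The share of reads on gland genes was 1.63, 0.178 and 1.5% in control and 1.03, 1.2 and 1.25% in VFLP_man, so the groups overlapped. The difference of its means changed sign in left folds alone (-0.779 percentage points) and without control animal 2 (-0.402).

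**Figure D4:**
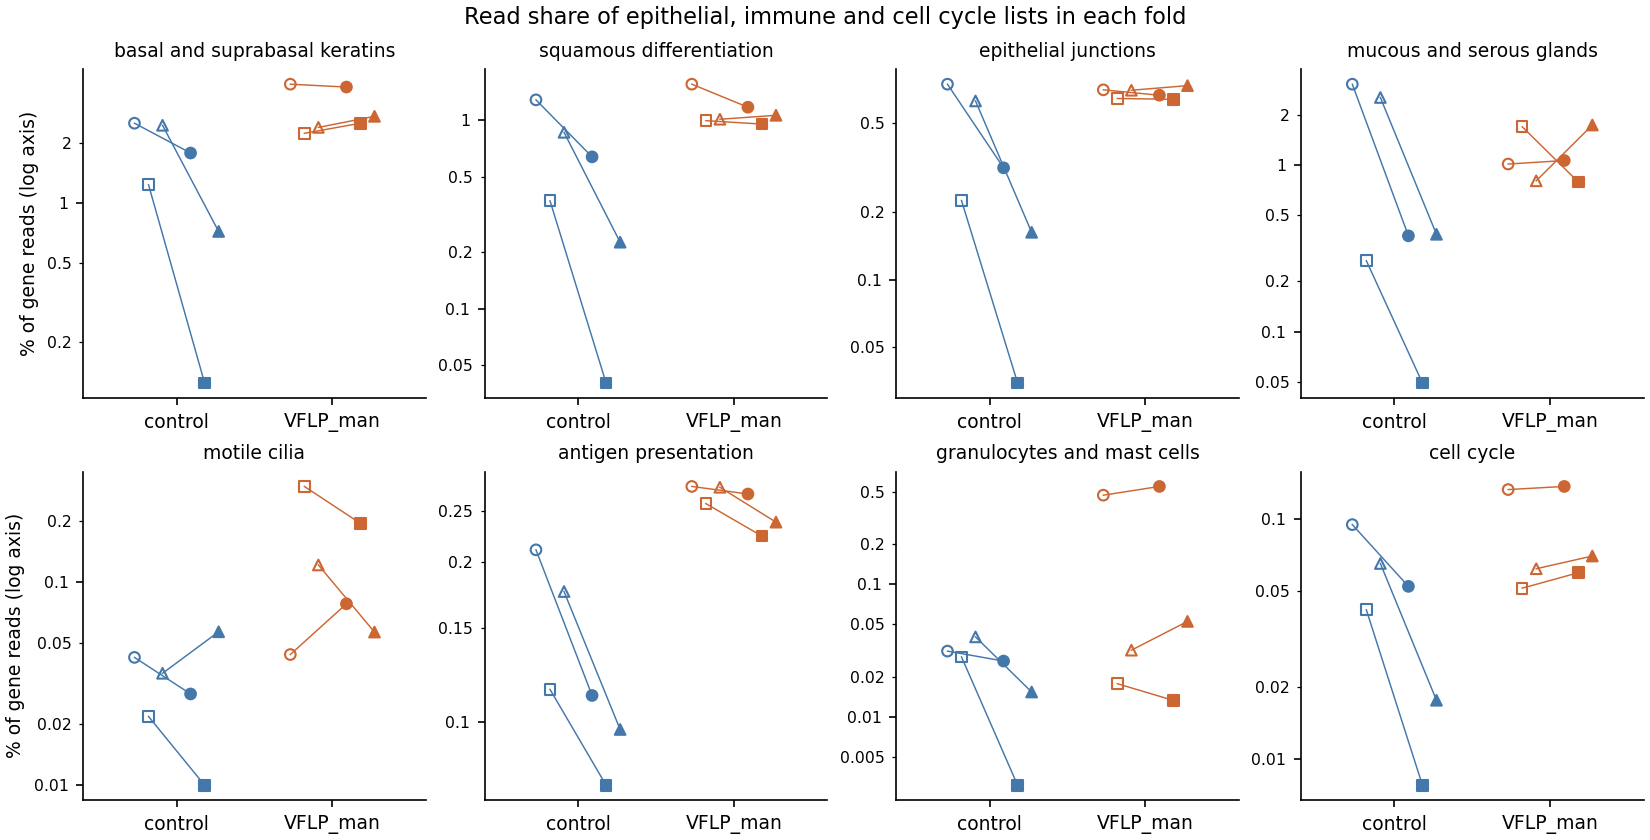
Percent of gene reads (log axis) on the genes of 8 epithelial, immune and cell cycle lists in each fold, drawn as in the plot of muscle shares (blue control, orange VFLP_man, open markers left folds, filled markers right folds). Control right folds lie below control left folds for keratins, junctions and glands, and VFLP_man animal 1 stands apart in the granulocyte list (0.47 and 0.547%).

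Genes of multiciliated cells had the highest median of any list, with few members past the test. There 5 of 29 tested members rose and 0 fell, a share near the 16.7% of all genes, with a median log2 fold change of 3.06. DESeq2 called 14 of them, and 14 were at an unadjusted p under 0.05. The rises were MYB, MCIDAS, CCNO, DEUP1 and RFX3, regulators of the multiciliated programme and of centriole number. MCIDAS, a switch gene of that fate, stood at 0.186, 0.137 and 0.257 CPM in control and 2.14, 2.35 and 1.66 CPM in VFLP_man. CCNO, which drives centriole amplification, stood at 0.269, 0.0457 and 0.457 CPM in control and 3.804, 3.91 and 2.62 CPM in VFLP_man. MYB stood at 4.49, 2.74 and 4.88 CPM in control and 8.58, 28.3 and 12.5 CPM in VFLP_man. In each of these the VFLP_man animals were above every control, 10.3-fold (log2 fold change 3.37, SE 0.79, adjusted p = 0.00595), 12.8-fold (log2 fold change 3.68, SE 0.90, adjusted p = 0.00733) and 4.07-fold (log2 fold change 2.02, SE 0.48, adjusted p = 0.00587). FOXJ1, a regulator of ciliated cell maturation, stood at 4.89 ± 7.93 CPM in control and 41.5 ± 39 CPM in VFLP_man (SD, adjusted p = 0.17). The share of cilia reads was 0.0348, 0.0169 and 0.0456% in control and 0.0591, 0.24 and 0.0898% in VFLP_man, with VFLP_man animal 2 the highest. The count of 5 was 20 without control animal 3 and 9 without VFLP_man animal 1. SCGB1A1, the secretoglobin of airway club cells, stood at 6.53, 75 and 903 CPM in control and 29.1, 12770 and 1492 CPM in VFLP_man and did not pass (adjusted p = 0.261). Against injury_only, whose animals gave 0.254, 0.121 and 0.0739% cilia reads, the median of the list was -0.34.

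Immune genes were taken by cell type. Of the genes of T and NK lymphocytes 7 of 17 tested members rose and 2 fell (26 listed), with a median log2 fold change of 1.70 and 1.96 with batch as a term. Those named here were at low levels. IL2RB, a chain of the interleukin 2 receptor, stood at 0.455, 0.365 and 0.514 CPM in control and 2.99, 1.75 and 2.11 CPM in VFLP_man. LCK, the kinase of T cell receptor signalling, stood at 0.93, 0.731 and 0.999 CPM in control and 2.97, 2.44 and 2.68 CPM in VFLP_man. FOXP3, the factor of regulatory T cells, stood at 0.145, 0.0457 and 0.0857 CPM in control and 0.934, 0.587 and 0.766 CPM in VFLP_man, from 11 reads in control and 141 in VFLP_man. Every VFLP_man animal was above every control, 5.08-fold (log2 fold change 2.34, SE 0.39, adjusted p = 0.000719), 3.03-fold (log2 fold change 1.60, SE 0.27, adjusted p = 0.000873) and 7.62-fold (log2 fold change 2.93, SE 0.52, adjusted p = 0.0011). TBX21 and GATA3 fell, with log2 fold changes of -3.12 and -1.24. GATA3, which epithelium also makes, stood at 53.4 ± 12.4 CPM in control and 22.6 ± 3.63 CPM in VFLP_man and was the most abundant gene of the list. The share of reads on the whole list overlapped between the groups, at 0.00547, 0.00444 and 0.00369% in control and 0.00465, 0.00396 and 0.00354% in VFLP_man. The 7 rises were 3 in left folds alone. Of antigen presentation genes 10 of 17 tested members rose and 0 fell, against 16.7% of all genes higher, and 2 rose in left folds alone. CD74, the invariant chain of MHC class II, stood at 80.6, 68.3 and 67.5 CPM in control and 192, 178 and 171 CPM in VFLP_man. TAP2, a peptide transporter for class I, stood at 17.2, 13.4 and 15.2 CPM in control and 35.03, 25.1 and 41.1 CPM in VFLP_man. RFXANK, a class II regulator, stood at 8.33, 8.77 and 8.79 CPM in control and 16.3, 15.9 and 17.5 CPM in VFLP_man. The groups were apart in all of these, 2.498-fold, 2.21-fold and 1.92-fold (adjusted p = 0.00757, 0.00211 and 0.000441). Of the B and plasma cell genes 2 of 17 tested members rose and 0 fell, PIM2 and PRDM1, and the count was 1 without VFLP_man animal 1 or 2 or control animal 1 and 0 without control animal 2.

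Of the macrophage and dendritic cell genes 4 of 23 tested members rose and 2 fell, shares near or below those of all genes (16.7% and 20.5%). CD68, a lysosomal marker of macrophages, stood at 24.6, 17.1 and 22.1 CPM in control and 91.7, 37.5 and 46.6 CPM in VFLP_man. CD163, a scavenger receptor of resident macrophages, stood at 2.11, 1.96 and 2.83 CPM in control and 0.501, 0.497 and 0.638 CPM in VFLP_man, and CD1D, a lipid antigen presenter, at 4.94, 12.2 and 9.74 CPM in control and 0.986, 1.13 and 0.989 CPM in VFLP_man. CD68 rose 2.75-fold (adjusted p = 0.00236), while CD163 fell 4.204-fold (adjusted p = 0.0036) and CD1D 8.64-fold (adjusted p = 0.0011). The 4 rises were 2 without control animal 3 and 1 without VFLP_man animal 1 or control animal 2, 0 in left folds alone, and limma called 1 each way. In the granulocyte list 1 of 13 tested members rose and 0 fell. The gene was S100A9, a neutrophil calcium-binding protein, at 24.1, 11.4 and 10.4 CPM in control and 299, 17.7 and 20.6 CPM in VFLP_man. Its rise rests on VFLP_man animal 1, with the other two between the lowest and the highest control, and the count was 3 without VFLP_man animal 2, 2 without VFLP_man animal 3 and 0 without VFLP_man animal 1 or control animal 1, 2 or 3. DESeq2 called 2 of this list, and 2 were at an unadjusted p under 0.05. Cytokine genes gave 5 rises and 6 falls among 29, shares near those of all genes. IL18, made by epithelium, stood at 132, 58.2 and 103 CPM in control and 295, 304 and 302 CPM in VFLP_man, 3.07-fold higher (log2 fold change 1.62, SE 0.23, adjusted p = 0.000256). CXCL12, a chemokine of stroma, stood at 30.1, 159 and 72.4 CPM in control and 8.42, 7.74 and 6.11 CPM in VFLP_man, and CSF1, the macrophage growth factor, at 15.01, 15.1 and 14.5 CPM in control and 5.43, 5.97 and 5.52 CPM in VFLP_man, falls of 11.7-fold and 2.63-fold. Of the interferon response genes 4 of 19 tested members rose and 0 fell, and the rises were 2 without VFLP_man animal 1 or 3 or control animal 3. IRF1 stood at 37.7, 34.4 and 48.8 CPM in control and 92.1, 63.8 and 107 CPM in VFLP_man, a rise of 2.18-fold (adjusted p = 0.00994). With batch as a term the median of this list was -0.06, against 0.72 without it. Complement genes gave 4 rises and 5 falls. C1R, of the classical pathway, stood at 158, 240.4 and 157 CPM in control and 49.2, 48.2 and 49.8 CPM in VFLP_man and MASP1, of the lectin pathway, at 39.6, 83.8 and 100 CPM in control and 1.297, 2.18 and 1.48 CPM in VFLP_man, falls of 3.78-fold and 44.9-fold. The 4 rises, C3, C6, CD46 and CD55, were 2 without VFLP_man animal 2 or 3 and 1 without control animal 2 or 3, and 0 in left folds alone.

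No gene of the cell cycle list passed among 30 (edgeR, 2 at an unadjusted p under 0.05, 1 called by DESeq2). NUSAP1, a spindle protein, came nearest at 15.4, 8.81 and 11.5 CPM in control and 43.4, 18.7 and 20.7 CPM in VFLP_man (adjusted p = 0.0611). In the hypoxia and glycolysis list 13 of 27 tested members fell and 4 rose. CA9, a carbonic anhydrase, stood at 14.6, 23.8 and 9.88 CPM in control and 0.104, 0.136 and 0.0798 CPM in VFLP_man, and ADM, adrenomedullin, at 13.6, 22.1 and 18.2 CPM in control and 1.297, 1.88 and 1.31 CPM in VFLP_man. The groups were apart, 147-fold and 11.99-fold. GAPDH, the glycolytic enzyme often used as a reference gene, stood at 6769, 22470 and 13150 CPM in control and 1031, 999.5 and 844 CPM in VFLP_man, a fall of 14.8-fold (log2 fold change -3.88, SE 0.45, adjusted p = 8.95e-05). The glucose transporter SLC2A1 rose, at 45.6 ± 12.6 CPM in control and 88.2 ± 20.6 CPM in VFLP_man (adjusted p = 0.0074), as did BNIP3L, PFKL and KDM3A. Immediate early genes gave 3 falls and 1 rise among 20. FOS stood at 22.6, 238 and 8.65 CPM in control and 7.25, 4.85 and 3.56 CPM in VFLP_man, with control animal 2 far above the others, and NR4A3 at 18.9, 13.8 and 35.1 CPM in control and 4.25, 3.64 and 2.54 CPM in VFLP_man. The falls were 1 without control animal 2, and the rise, KLF6, was 0 without VFLP_man animal 1 or control animal 2 or 3.

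Of the IGF genes 11 of 19 tested members fell and 1 rose (median -1.30). IRS1, the receptor substrate, stood at 84.6, 109 and 85.2 CPM in control and 23.7, 38.9 and 38.8 CPM in VFLP_man, and IGFBP4, a binding protein, at 70.6, 178 and 106 CPM in control and 37.1, 28.3 and 22.9 CPM in VFLP_man. Both fell, 2.75-fold and 4.01-fold. IGFBP3 rose, at 60.5 ± 30.4 CPM in control and 381 ± 467 CPM in VFLP_man (SD, adjusted p = 0.038), a count of 1 that became 0 without VFLP_man animal 1 or control animal 1 or 2. Of the Wnt genes 12 of 39 tested members fell and 7 rose. FRZB, a secreted Wnt antagonist, stood at 192, 375 and 274 CPM in control and 5.58, 12.4 and 30.7 CPM in VFLP_man. FZD7, a receptor, stood at 45.99, 82.2 and 60.4 CPM in control and 9.44, 12.8 and 18.3 CPM in VFLP_man, and FZD1, another, at 13.9, 9.501 and 10.4 CPM in control and 28.5, 19.4 and 25.7 CPM in VFLP_man. FRZB and FZD7 fell 17.2-fold and 4.65-fold, and FZD1 rose 2.18-fold. The 7 rises were 4 without control animal 2. In left folds alone 5 fell and 3 rose. Among unfolded protein response genes 3 of 20 tested members rose and 3 fell, and the rises were 1 without VFLP_man animal 1 or control animal 2. Left folds alone gave 0 rises and 0 falls. DNAJB9 stood at 48.4, 62.1 and 53.4 CPM in control and 24.4, 31.5 and 21.2 CPM in VFLP_man and the chaperone calnexin, CANX, at 685, 529 and 592 CPM in control and 957, 833 and 856 CPM in VFLP_man. Among ATF4 targets 6 of 21 tested members rose and 3 fell, and the rises were 3 without VFLP_man animal 1 or control animal 3 and 2 without control animal 2. SESN2, a sensor of amino acids, stood at 25.6, 20.01 and 12.9 CPM in control and 58.5, 40.4 and 58.6 CPM in VFLP_man, a rise of 2.69-fold, and MTHFD2, a mitochondrial folate enzyme, at 32.04, 66.9 and 46.1 CPM in control and 11.1, 5.27 and 6.29 CPM in VFLP_man, a fall of 6.39-fold. Of the lysosome and autophagy genes 9 of 27 tested members rose and 4 fell. LAMP1, a lysosomal membrane protein, stood at 243, 206 and 261 CPM in control and 338, 331 and 398 CPM in VFLP_man, a rise of 1.502-fold, and TFEB, the factor that drives lysosome genes, at 16.1, 36.6 and 27.9 CPM in control and 5.74, 7.56 and 7.63 CPM in VFLP_man, a fall of 3.85-fold. Of cytosolic ribosomal proteins 6 of 32 tested members rose and 0 fell, all under 2-fold, and the rises were 3 without VFLP_man animal 1, 2 without VFLP_man animal 3 or control animal 3 and 1 without control animal 2. RPS27 stood at 556, 519 and 583 CPM in control and 872, 724 and 920.4 CPM in VFLP_man (log2 fold change 0.60).

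The 15 largest rises among genes of at least 1 CPM with no overlap between groups reached outside these lists. CRHBP, which binds corticotropin-releasing hormone, was at 0 reads in all 3 controls and at 0.38, 11.2 and 5.62 CPM in VFLP_man, at least 209.5-fold higher against a floor of 3 counts over the group. ANKRD1, an ankyrin repeat protein of stressed muscle and of YAP signalling, stood at 0.558, 0.365 and 0.114 CPM in control and 3.46, 59.7 and 62.1 CPM in VFLP_man, with VFLP_man animal 1 well below the other two. In VFLP_man animals 2 and 3 the right folds held 109 and 129 CPM of ANKRD1 and 20.7 and 11.7 CPM of CRHBP. Their left folds held 3.41 and 0.45 CPM of ANKRD1 and 0.31 and 0 CPM of CRHBP. These right folds also had the highest sarcomere shares in VFLP_man, 0.952 and 0.557%. A link between these values was not tested. OCM, oncomodulin, stood at 0.909, 0 and 1.88 CPM in control and 40.3, 26.9 and 20.7 CPM in VFLP_man. LGI2 stood at 0.806, 0.0457 and 2.198 CPM in control and 25.04, 30.9 and 14.6 CPM in VFLP_man. IL2RA, the high-affinity interleukin 2 receptor chain of activated and regulatory T cells, stood at 0.248, 0.228 and 0.799 CPM in control and 7.85, 2.15 and 17.4 CPM in VFLP_man, 21.2-fold higher (log2 fold change 4.41, SE 0.90, adjusted p = 0.00252). TNFRSF8, the CD30 receptor of activated lymphocytes, stood at 0, 0.228 and 0.285 CPM in control and 5.05, 1.31 and 3.22 CPM in VFLP_man, a rise of 19.4-fold. DNAH17, DEUP1, IQCH, MORN5 and TSGA10, which are known from cilia, centrioles or sperm, rose between 12.96-fold and 29.9-fold. PPEF2, ZBED2, DOC2A and KCNJ16 completed the 15, with rises of 59.2-fold, 18.5-fold, 13.6-fold and 13.4-fold. The injury_only animals averaged 8.56 CPM of CRHBP and 55.6 of ANKRD1, against 5.72 and 41.8 in VFLP_man. Neither differed between these 2 groups at the threshold (adjusted p = 0.883 and 0.919).

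Of the 15 largest falls, MYBPHL, MYH6, MYH13, MYL3, STRIT1, PVALB, MYH4 and MYH7 are muscle genes. MYBPHL, a myosin-binding protein, went from 3726 reads in control to 1 in VFLP_man, a ratio of 6615 with a 95% counting interval of 1187 to 261400. MYH6, which names the alpha myosin of heart and is also made in some jaw muscles, stood at 304, 1394 and 621 CPM in control and 1.05, 0.0301 and 0.0638 CPM in VFLP_man. CA14, a membrane carbonic anhydrase, stood at 74.1, 236 and 163 CPM in control and 0.605, 1.14 and 0.175 CPM in VFLP_man, and KCNA1, a potassium channel of nerve and muscle, at 26.5, 144 and 84.5 CPM in control and 0.277, 0.331 and 0.495 CPM in VFLP_man. Each VFLP_man animal was at or under 1.14 CPM in both, falls of 244-fold and 229-fold. CA4, CLEC3A and LPL are described above. PPDPFL stood at 0.641, 26.2 and 14.1 CPM in control and 0.173, 0 and 0 CPM in VFLP_man, with control animal 1 far below the other two, and its log2 fold change was 1.69 with batch as a term, against -7.87 without. Genes of the myosin heavy chain family are close in sequence, and reads with several map positions are listed apart from the gene counts. Single members of that family are therefore less certain than the list.

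The most abundant genes changed places. In control the 10 highest by mean CPM with a symbol were RN18S, MYH1, ALDOA, GAPDH, ACTC1, KRT4, ATP2A1, TTN, MYL1 and EEF1A1, of which 7 are muscle or glycolysis genes. In VFLP_man they were RN18S, KRT13, ANXA1, EEF1A1, KRT4, EMP1, SCGB1A1, ANXA2, MUC1 and ALDH1A1. ACTC1, the actin named for heart, stood at 7367, 18210 and 12900 CPM in control and 75.3, 397 and 238 CPM in VFLP_man. ANXA1, an annexin of squamous epithelium, stood at 7085, 4019 and 5214 CPM in control and 16210, 7852 and 7534 CPM in VFLP_man and did not pass (adjusted p = 0.0599). ALDH1A1, an enzyme of retinoic acid synthesis, stood at 1385, 1328 and 1606 CPM in control and 3210, 3097 and 2743 CPM in VFLP_man, 2.096-fold higher (log2 fold change 1.07, SE 0.24, adjusted p = 0.00494). MUC1, a membrane mucin, stood at 2292, 1141 and 2278 CPM in control and 5030, 2118 and 2653 CPM in VFLP_man and did not pass (adjusted p = 0.102). RN18S, the small-subunit ribosomal RNA, stood at 34620, 27930 and 51410 CPM in control and 39310, 49920 and 40330 CPM in VFLP_man and overlapped between the groups.

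Against injury_only, in the same fit, 189 of 17770 genes passed (1.06%), 13 higher and 176 lower in VFLP_man. This comparison crosses batches too, with 5 of the 6 injury_only libraries in batch C, and 0 genes passed with batch as a term (edgeR, 989 at an unadjusted p under 0.05; DESeq2, run with no batch term, called 1249). With no batch term in edgeR the number was 0 without VFLP_man animal 1, injury_only animal 2 or injury_only animal 3, and 1 (PDCD5) without VFLP_man animal 3. The comparisons with control and with injury_only share the VFLP_man animals. The list medians against injury_only and against control were -2.59 and -4.93 for the sarcomere, -0.87 and -1.91 for fibroblasts, and -1.08 and -1.88 for endothelium. They were -1.52 and -1.81 for smooth muscle and -1.88 and -2.03 for cartilage. In gland genes the sign differed, -1.04 against injury_only and 0.78 against control. The share of gland reads was 6.38, 4.58 and 9.12% in injury_only. Whether the effect differs between the 2 comparisons was not tested.

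**Figure D5:**
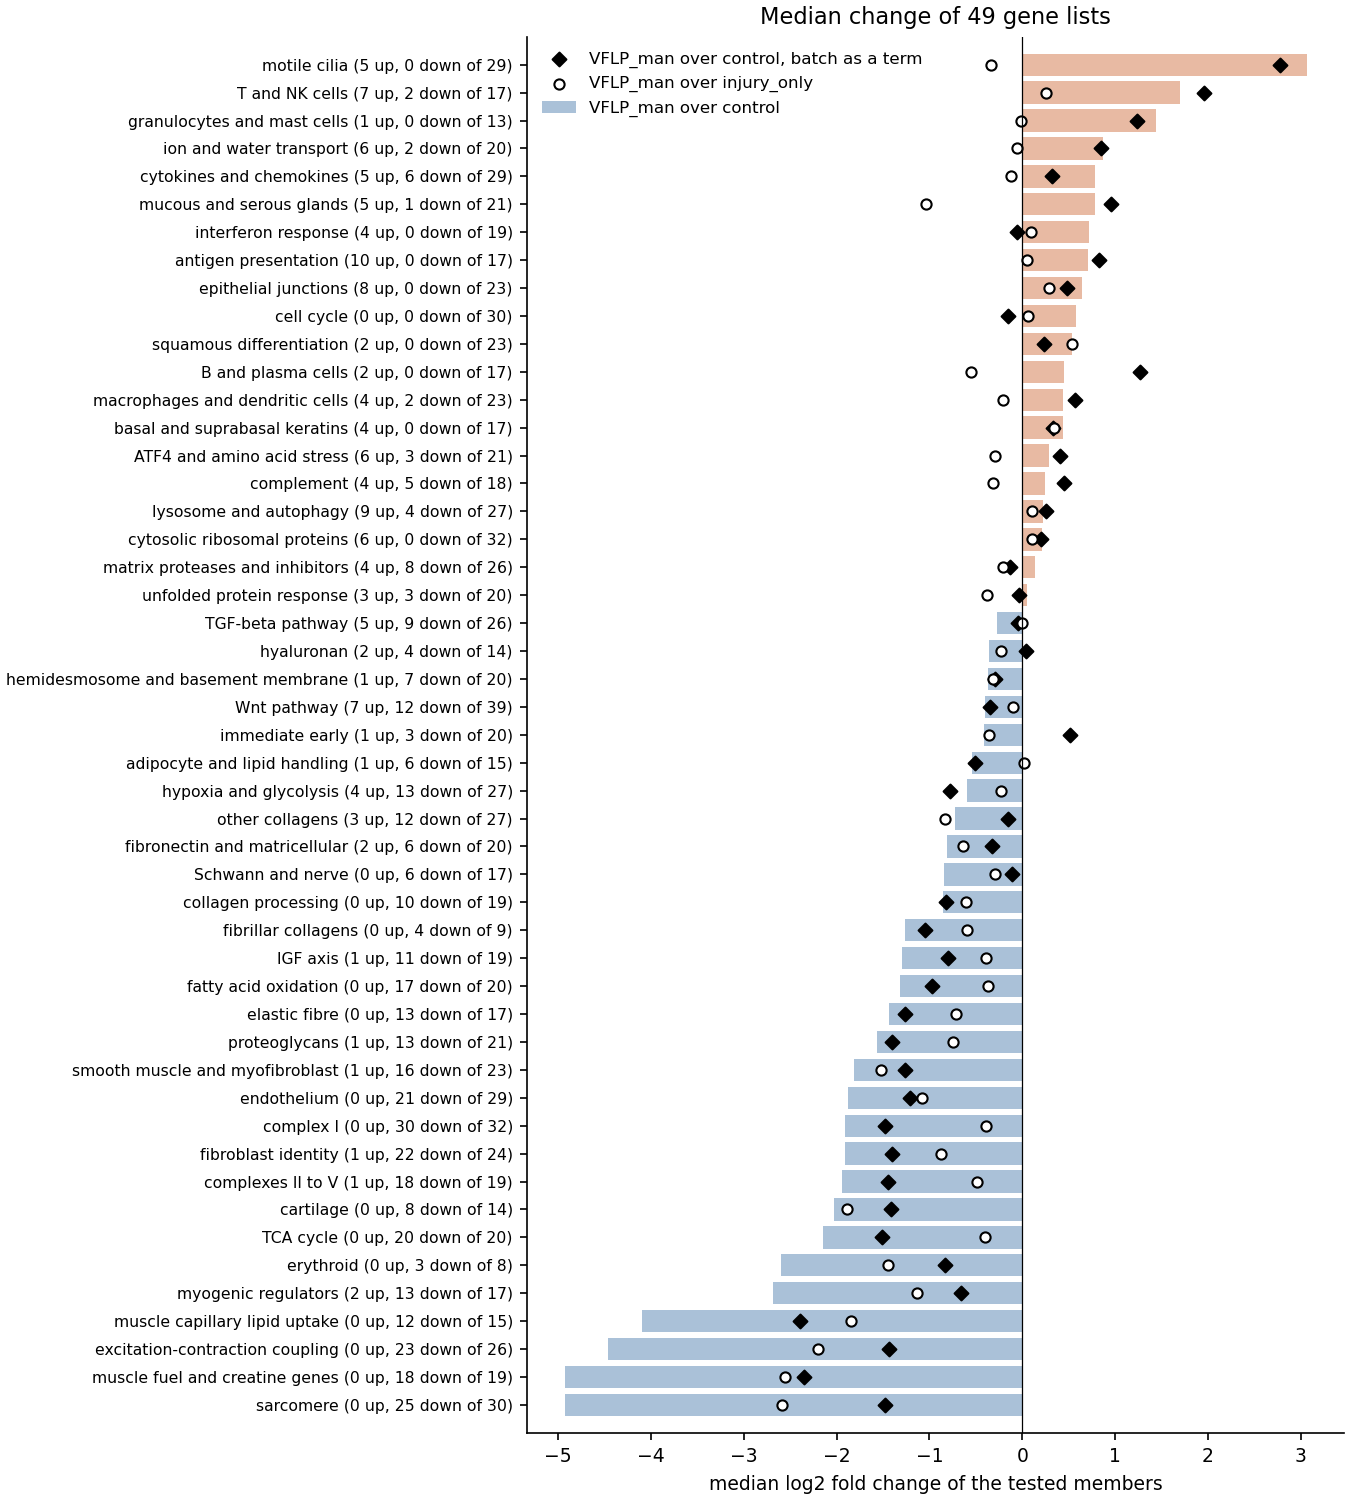
Median log2 fold change (x axis) of the tested members of 49 gene lists. Bars are VFLP_man over control (orange above 0, blue below), diamonds the same with batch as a term, and open circles VFLP_man over injury_only, with the numbers of genes that rose (up) and fell (down) against control beside each name. The sarcomere list goes from -4.93 to -1.48 with batch as a term, while motile cilia go from 3.06 to 2.77 and to -0.34 against injury_only.

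Within batch D, VFLP_man could be compared with the other injected groups, 3 animals against the mean of Col1 and VFLP_au. Of 17368 genes 1 passed (0.00576%), with 1952 at an unadjusted p under 0.05 and 593 called by DESeq2. The gene, LOC127482684, is known by its identifier only and is named after its value was seen (log2 fold change -6.12, adjusted p = 0.0117). It stood at 0.0346, 0.0602 and 0.0798 CPM in VFLP_man, against 1.99, 3.92 and 3.18 in Col1 and 5.94, 4.43 and 7.57 in VFLP_au. It was at 0.0207, 13.5 and 10.5 CPM in control, so a control animal was as low as VFLP_man. The call was lost without VFLP_man animal 2 or 3, Col1 animal 3 or VFLP_au animal 1, and with a replicate block. The symbols with the smallest p were IDH2, AK4 and SLC25A34, with log2 fold changes of -0.98, -1.92 and -2.36 (adjusted p = 0.184 each). The sarcomere list had a median of -1.53 there, and motile cilia 1.77.

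In the series 1 animal had a fold in each batch, injury_only animal 1, whose left fold lies in batch C and right fold in batch D. Its sarcomere share was 1.75% on the left and 0.223% on the right. This is the reverse of the order in the 6 animals compared here, where the right fold held more. Its gland share was 6.98 and 5.78%, and its keratin share 1.56 and 2.53%. With batch as a term the genes that rose, named after their values were seen, were CAPN5, a calpain, at 58.9, 55.7 and 58.6 CPM in control and 250, 157 and 183 CPM in VFLP_man, and TMC8, a membrane protein of lymphocytes, at 4.75, 3.52 and 4.05 CPM in control and 13.6, 13.5 and 14.7 CPM in VFLP_man. Their log2 fold changes were 1.78 and 1.90 (adjusted p = 0.0467 each). Beside the genes above, the 27 that fell included VEPH1 at 13, 7.95 and 8.14 CPM in control and 0.346, 0.436 and 0.335 CPM in VFLP_man, FABP3, the fatty acid binding protein of muscle, at 98.9, 223 and 203 CPM in control and 0.916, 2.08 and 0.75 CPM in VFLP_man, and HSD11B1, which activates glucocorticoids, at 7.59, 14 and 21.5 CPM in control and 1.18, 0.948 and 1.61 CPM in VFLP_man. In each the groups did not overlap.

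Left and right folds were tested for a difference in the effect itself. The interaction of side with group passed in 0 of 16492 genes by edgeR with animals as a block (0.0%), with 4690 at an unadjusted p under 0.05. DESeq2 called 2888, and edgeR called 1110 without control animal 1. The smallest adjusted p was 0.0507, shared by TRIM2, CYSLTR1 and DOCK11. TRIM2, a ubiquitin ligase, had an interaction of 1.46 (SE 0.12) on the log2 scale, CYSLTR1 of 1.67 and DOCK11 of 1.45. In control its left and right folds stood at 170 and 68.5, 73.7 and 24.2, and 117 and 43.4 CPM, and in VFLP_man at 192 and 189, 245 and 249, and 215 and 215 CPM. The right control folds were lower than the left ones in each animal, and the VFLP_man folds differed by a few CPM at most.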

How the data were processed

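Messenger RNA of rabbit vocal folds was sequenced in 30 libraries, 2 folds from each of 15 animals. The deposited values are raw read counts per gene. Alignment used STAR 2.7.10b, per the submitters' processing notes. For the genome build and gene annotation, no name is given in the sources used here. The authors' table gives counts without strand and for either strand, and the strand column that holds nearly all stranded gene reads was used. The 4 rows that name no gene were left out of the totals (shares are given in the report). Folds of an animal were summed. Counts were tested with edgeR 4.0.16 in R 4.3.3 (TMM, filterByExpr with a minimum count of 10, quasi-likelihood F test, Benjamini-Hochberg) with all 15 animals sharing 1 estimate of spread. The labels do not say more on how animals were kept or drawn. In the comparison with control a p-value sets the group difference against a spread estimated from all 15 animals, and it covers these animals only.

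Genes were named by rule: the 15 largest changes each way, up to 4 genes by smallest p in each of 49 lists, 10 preset genes, the 10 most abundant in each group, and those of smallest p in the other tests. Of 1185 list genes, 1059 matched a symbol and 1010 were tested. The members and lists were chosen with earlier results of these data known. Alternatives were DESeq2 1.42.0, limma 3.58.1 voom, DESeq2 size factors, no filter, unstranded counts, folds alone or separate, and the 2 groups alone. Others were a replicate block, a batch term, a muscle covariate, and leaving out each animal. In a further fit the sarcomere, fuel and coupling lists and all entries beginning MT- or KEF were left out of the totals. The scripts were tested on simulated data. Some genes that the rule or lists hold are not reported here. Intervals and floors cover counting error only.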

Additional observations from a re-analysis of the deposited data

Results flagged for a closer look

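Reads that matched no gene feature on the strand counted were more frequent in VFLP_man, at 8.03 to 11.9% of reads against 5.07 to 6.69% in control. The lowest VFLP_man library (8.03%) lay above every control library, and these reads enter none of the gene values. All control libraries are in batch C and all VFLP_man libraries in batch D, so batch and group cannot be told apart here. The injury_only libraries of batch C ran from 7.22 to 11.6%, with 7.22 and 7.4% in injury_only animal 2 and 10.2 to 11.6% in the others. The folds of VFLP_man animal 3 gave 8.03 and 8.07%, and those of VFLP_man animals 1 and 2 gave 8.58 to 11.9%. Injury_only animal 2 and VFLP_man animal 3 are the animals that lay with the controls in 8 KEF51 entries. A link between these entries and the reads without a feature was not tested.

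Cell cycle genes differed between folds in opposite directions in the groups. The right fold held a smaller share of cell cycle reads than the left in all 3 control animals, by a mean of -0.0412 percentage points, and a larger share in all 3 VFLP_man animals, by a mean of 0.00673. The left and right shares were 0.0944 and 0.0523%, 0.0418 and 0.00781%, and 0.0651 and 0.0176% in control. They were 0.132 and 0.136%, 0.0514 and 0.0596%, and 0.0619 and 0.0699% in VFLP_man. Other lists moved with this: in all 3 controls the right fold held less of the junction reads (0.746 and 0.316%, 0.226 and 0.0347%, 0.628 and 0.163%) and of keratin and squamous reads, and more of the sarcomere reads (1.48 and 6.96%, 5.91 and 8.46%, 3.58 and 6.59%). Their part in the result was not tested, nor was the difference between the groups.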

How the results depend on the processing

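Against control, the number of genes that rose was 4694 with the 30 libraries as separate samples, 881 in left folds alone, 1331 with only the 2 groups, 2 with batch as a term, 1 with the muscle covariate, and 1576 to 2848 without 1 animal. The number that fell was 1986 in left folds, 27 with batch, 1 with the muscle covariate, and 2862 to 3914 without 1 animal. Against injury_only, rises numbered 336 with DESeq2, 0 with batch, 8 without a filter and 7 with the replicate block, and 0 to 25 without 1 animal. Falls numbered 913 with DESeq2, 0 with batch, and 0 to 275 without 1 animal. Against the other injected groups, DESeq2 called 166 higher and 427 lower, the fit of all 15 animals 7 lower and the replicate block 0, and leaving out 1 animal gave 0 to 1 and 0 to 3. For side, DESeq2 called 1780 higher and 1108 lower, and leaving out 1 animal gave 0 to 1058 and 0 to 52. The sarcomere share difference was -3.58 points in left folds and -6.79 in right folds. Left folds alone gave 0 rises in the lists of complexes II to V, adipocytes, fibroblasts, smooth muscle, granulocytes, immediate early and IGF genes. The cause was not tested for any of these.

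Of 226 named genes, 206 lost the threshold and 3 changed direction with batch as a term: KLK1 0.71, NR4A3 0.46 and PPDPFL 1.69 (log2). With the muscle covariate 192 lost it and 22 changed direction: ACTA2 1.35, ALAS2 1.06, CD68 -0.30, CILP 0.43, COL11A2 0.81, DNAJB9 0.12, F11R -0.39, GJB6 -1.28, IFI44L -0.78, IFIH1 -0.076, KLF6 -0.32, KLK1 1.95, KRT19 -0.13, MMP1 -0.56, MYH4 1.29, MYL1 1.13, PPDPFL 3.28, PVALB 0.15, RPS13 -0.20, RPS19 -0.057, S100A9 -3.25 and ZNF750 -0.39. The medians of myogenic regulators (1.0) and of smooth muscle and myofibroblast genes (0.25) did so too. MYH4 and MYL1 belong to the sarcomere list from which the covariate was made, so each was adjusted in part for itself. The complement median was -0.22 in right folds, and the gland share difference -0.779 points in left folds and -0.402 to 0.324 without 1 animal, the lowest without control animal 2. In the other alternatives 0 of the named genes changed direction. The cause was not tested.

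Replicate numbers do not pair the animals: deviations of same-numbered animals correlated at 0.177, -0.0239 and -0.0569. With the number as a replicate block, 2710 genes rose and 3480 fell against control. Depth limits genes of few reads, such as MYMX, and 3 animals a group limit every exact test to p = 0.1.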

Other observations

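The 13 KEF51 entries together took 5.26 to 27.8% of gene reads in control libraries and 1.30 to 4.54% in VFLP_man libraries. KEF51_p10, 1 of the 8 that divide the animals, stood at 2.84 to 5.83 CPM, without TMM scaling, in the folds of VFLP_man animals 1 and 2. It stood at 4810 to 6270 in those of VFLP_man animal 3, at 10200 and 12300 in those of injury_only animal 2, and at 6200 to 39700 in control folds. RPL34, a ribosomal protein gene, also varied between animals within a group, at 19.4, 25.8 and 391 CPM in control and 326, 23.7 and 29.6 CPM in VFLP_man, against 180 to 204 CPM in the 6 animals given Col1 or VFLP_au. Both were picked after their values were seen.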
